A study of Mus musculus with 4 samples.

Results

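The 9 genes described here encode proteins that build a fibrin clot, hold it back or dissolve it: *F5*, *F10*, *F7*, *F3*, *F13a1*, *Thbd*, *Plau*, *Plaur* and *Serpinb2*. They were chosen by name as genes of coagulation and fibrinolysis, with earlier results of these data known. All 9 were found among the 18364 genes of the expression table. RNA came from large peritoneal macrophages (LPMs), the main resident macrophage of the peritoneal cavity, which were sorted as F4/80+ MHCII- CD102+ cells from C57BL/6 mice aged 8 weeks. Of the 4 libraries, 2 were labelled wild type (WT), which per the methods means *Rxra* fl/fl mice without Cre, and 2 were labelled Rxra-KO (*Rxra*-/-), which means *LysM* Cre+ *Rxra* fl/fl mice. The Cre recombinase was driven by the *Lyz2* (LysM) locus, so deletion was directed to myeloid cells as a whole and not to LPMs alone. *Rxra* encodes RXRα, a nuclear receptor that works as a homodimer or paired with other nuclear receptors. Neither source used here says whether the libraries came from separate or pooled animals, so p-values measure the spread between these libraries, which may be technical. The comparison asked which of the 9 genes differed between the 2 groups and by how much.

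Clotting starts when tissue factor (*F3*) binds factor VII (*F7*), the pair activates factor X (*F10*), and factor X with its cofactor, factor V (*F5*), turns prothrombin into thrombin. Thrombin cuts fibrinogen to fibrin, factor XIII (*F13a1* encodes its catalytic A subunit) cross-links the fibrin, and thrombomodulin (*Thbd*) redirects thrombin towards anticoagulation. Urokinase (*Plau*), held at the cell surface by its receptor (*Plaur*), makes the plasmin that dissolves fibrin, and *Serpinb2* encodes plasminogen activator inhibitor type 2, which blocks urokinase. Resident peritoneal macrophages are known to make clotting factors, factor V among them, and fibrin formed in the cavity can trap bacteria.

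Recovered depth was low, from 629030 to 1047021 reads per library, and each group held 1 shallower library (replicate 1) and 1 deeper library (replicate 2). Values are the deposited normalised read signal, in which a single read was worth 1.51 in WT replicate 1, 1.08 in WT replicate 2, 1.51 in Rxra-KO replicate 1 and 0.993 in Rxra-KO replicate 2. The signal of *Rxra* itself was 31.0 and 30.9 in WT and 50.4 and 77.0 in the libraries labelled Rxra-KO (log2 fold change 0.99, SE 0.36, limma adjusted p = 0.183). *Rxra* was therefore not lower under the knockout label. The count covers the whole gene and does not show whether the deleted stretch was present, so the groups are named here by their labels. Of 10 LPM markers, 9 were in the table (*Adgre1*, which encodes F4/80, was not) and none was at 0 in any library, but the LPM transcription factor *Gata6* had 35 and 65 reads in WT against 3 and 24 in the libraries labelled Rxra-KO.

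Promoter windows are shown for the genes of the proteases factor VII and factor X, of the cofactor factor V and for *F13a1*. RXRα and GATA6 bind DNA, and the study concerns both. The windows shown include every one that held the hexamer nuclear receptors bind, so they do not stand for all genes with a window. RefSeq (build GRCm38.p6) gave a window for 7 of the 9 genes, with none for *Thbd* and *Plau*. Each window is the 250 bases before the annotated start, 5′ to 3′ on the gene's strand. Capitals mark matches on either strand to the hexamer that nuclear receptors bind, to the core that GATA factors bind and to the core of PU.1, a macrophage transcription factor, each spelled out after the sequences. The windows are *F5* at chr1:164151585-164151834 (plus strand), *F10* at chr8:13037058-13037307 (plus strand), *F7* at chr8:13025784-13026033 (plus strand) and *F13a1* at chr13:37050245-37050494 (minus strand). By whole gene spans in GENCODE M21, *F5* overlaps *Gm16548* and *Gm16588*, *F13a1* overlaps *Gm49144* and *Gm30489*, and *F10* and *F7* overlap no other gene.
F5: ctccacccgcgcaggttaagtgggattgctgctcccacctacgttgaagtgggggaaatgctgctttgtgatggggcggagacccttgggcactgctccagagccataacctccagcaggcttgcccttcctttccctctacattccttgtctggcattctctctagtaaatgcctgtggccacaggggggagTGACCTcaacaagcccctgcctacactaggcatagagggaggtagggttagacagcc
F10: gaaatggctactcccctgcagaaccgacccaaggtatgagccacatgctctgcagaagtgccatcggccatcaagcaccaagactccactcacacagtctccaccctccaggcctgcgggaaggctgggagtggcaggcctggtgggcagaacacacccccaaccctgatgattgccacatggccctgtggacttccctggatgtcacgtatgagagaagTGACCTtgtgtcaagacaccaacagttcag
F7: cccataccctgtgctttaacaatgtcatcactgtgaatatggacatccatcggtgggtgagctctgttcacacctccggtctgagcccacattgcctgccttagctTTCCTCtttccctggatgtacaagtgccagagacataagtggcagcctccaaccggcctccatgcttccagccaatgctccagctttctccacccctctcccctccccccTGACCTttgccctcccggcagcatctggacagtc
F13a1: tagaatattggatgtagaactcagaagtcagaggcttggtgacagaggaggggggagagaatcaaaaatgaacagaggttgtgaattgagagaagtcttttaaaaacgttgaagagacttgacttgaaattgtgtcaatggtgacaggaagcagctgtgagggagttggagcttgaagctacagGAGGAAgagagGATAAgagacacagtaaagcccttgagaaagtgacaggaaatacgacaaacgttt

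The nuclear receptor hexamer was searched as AGGTCA, which reads TGACCT on the other strand. It stood 57 bases before the start of *F5*, 30 bases before that of *F10* and 34 bases before that of *F7*, in each case on the strand opposite the gene. *F10* and *F7* are neighbours on chromosome 8, with *Proz* on the other side of *F10*. The windows of *F3*, *Serpinb2* and *Plaur* held no hexamer. Of all 32851 windows of the same length, 14.0% held AGGTCA on either strand. *F13a1* held the GATA core (GATAA) 55 bases and the PU.1 core (GAGGAA) 66 bases before its start and no hexamer. *F7* also held the PU.1 core, on the opposite strand, at 144 bases, and the window of a second, downstream start of *F13a1* held none of the motifs. The GATA core occurred in 22.6% and the PU.1 core in 23.3% of all windows. Of the others, *Serpinb2* held the GATA core 40 bases before the later of its 2 annotated starts, *Plaur* held PU.1 cores at 216 and 131 bases, and *F3* held none. The direct repeats AGGTCANAGGTCA (DR1) and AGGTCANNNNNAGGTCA (DR5), which RXR dimers can bind, were searched as exact letters. They were in 0.0335% and 0.00913% of all windows and in none of these 7 genes. Repeats with a changed base were not counted, such as TGACCTttgccct in the *F7* window, which is close to DR1. A match is a run of letters and says nothing of binding.

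*F5* had the most reads of the 9 genes in WT and was lower under the knockout label. The signal was 1677 and 1780 in WT and 784 and 1011 under the knockout label, from 520 to 1640 reads per library. The WT libraries lay close together and above both others, and the mean fell from 1728 ± 72.7 to 897 ± 160 (SD, n = 2 in each group). The log2 fold change was -0.96 (SE 0.21, 95% interval -1.38 to -0.53), a ratio of 0.515, with an adjusted p of 0.00121 in limma after Benjamini-Hochberg adjustment over all genes. The antisense gene *Gm16548* overlaps *F5* and moved with it, at 343 and 498 in WT and 154 and 197 under the knockout label (log2 fold change -1.24). The library kit keeps no strand, so reads in the overlap cannot be assigned to one of the pair. Without WT replicate 2 the fold change was -0.91 and no longer passed (limma adjusted p = 0.112).

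*F10* was lower as well, with more spread. Signal for it was 470.1 and 591 in WT and 169 and 342 in the libraries labelled Rxra-KO, where replicate 1 was the lowest of all and the groups did not overlap. Group means were 530 ± 85.3 and 256 ± 122 (SD, n = 2). On the log2 scale *F10* fell by 1.13 (SE 0.23, 95% interval -1.59 to -0.66, limma adjusted p = 0.00031). The size of this difference rested on single libraries. It was -0.62 without Rxra-KO replicate 1 (limma adjusted p = 0.424) and -1.63 without Rxra-KO replicate 2, and without WT replicate 2 it was -0.96 (limma adjusted p = 0.0993).

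*F7* split the libraries labelled Rxra-KO on either side of WT. It read 246 and 200.1 in WT and 98.6 and 493 in the libraries labelled Rxra-KO, so these held both the lowest and the highest value. The log2 fold change was -0.01 (SE 0.27, limma adjusted p = 0.994), with a 95% interval from -0.53 to 0.52 that leaves room for ratios from 0.691 to 1.43. Taken without Rxra-KO replicate 1 the value was 1.15 (limma adjusted p = 0.00551), and without Rxra-KO replicate 2 it was -1.16 (limma adjusted p = 0.0141). Each of the 2 libraries labelled Rxra-KO alone thus gave a call, in opposite directions, with a lone library assumed to vary like the rest. *F7* had 65 reads in replicate 1 and 496 in replicate 2 of that label, and its neighbour *F10* had 112 and 344.

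*F3*, the initiator, was near the limit of detection. WT held 15 and 0 reads and the libraries labelled Rxra-KO 5 and 0, so both libraries with reads were the shallower ones. A count of 0 allows up to 3 reads, a signal of 3.25 in WT replicate 2 and 2.98 in Rxra-KO replicate 2. Its difference of -0.72 on the log2 scale (SE 0.83, limma adjusted p = 0.896) had an interval from -2.36 to 0.92, and at this depth no difference in *F3* could be seen.

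*F13a1* showed the largest difference of the 9 genes and the only call upward. Its signal was 282 and 49.4 in WT and 2443 and 1621 in the libraries labelled Rxra-KO, or 186 and 45 reads against 1622 and 1632. Every library under the knockout label exceeded both WT libraries, and WT replicate 1 stood well above WT replicate 2. Group means were 166 ± 165 and 2032 ± 581 (SD, n = 2). *F13a1* rose by 4.06 on the log2 scale (SE 0.25, 95% interval 3.56 to 4.56), or 16.7-fold, with a limma adjusted p of 4.67e-36. This was the 18th highest log2 fold change of the 18364 genes. Its size depended on the WT library used, at 2.81 if WT replicate 2 was left out and 5.31 if WT replicate 1 was, both still called. DESeq2 gave 3.60 with an adjusted p of 0.0516.

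*Thbd*, the anticoagulant member, stood at 61.3 and 77.6 in WT and 85.1 and 132.6 in the libraries labelled Rxra-KO. The groups did not overlap, with 40 to 133 reads per library. The means were 69.4 ± 11.5 and 109 ± 33.6 (SD, n = 2). The log2 fold change of 0.62 (SE 0.30, 95% interval 0.03 to 1.20) did not pass, with a limma adjusted p of 0.448.

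*Serpinb2*, the inhibitor, fell under the knockout label, as the study had already reported from these data. Its signal was 159.7 and 241 in WT and 105 and 50.2 in the libraries labelled Rxra-KO, with 50 to 222 reads per library and no overlap. Group means were 201 ± 57.7 and 77.4 ± 38.5 (SD, n = 2), and the gene fell by 1.42 on the log2 scale (SE 0.28, 95% interval -1.98 to -0.87), with a limma adjusted p of 9.6e-05. It no longer passed without WT replicate 2 (-1.13, limma adjusted p = 0.102) or without Rxra-KO replicate 2 (-0.90, limma adjusted p = 0.163), and scaling by library total left the limma adjusted p at 0.0614. *Serpinb10* overlaps *Serpinb2* in the annotation, and their shared reads are uncertain. Named after its values were seen, it read 469 and 438 in WT and 264 and 336 under the knockout label (log2 fold change -0.60, limma adjusted p = 0.215).

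*Plau* and *Plaur*, the enzyme that *Serpinb2* blocks and the receptor of that enzyme, gave no call. For *Plau* the reads were 1 and 8 in WT against 1 and 4 under the knockout label, so the interval of its log2 fold change ran from -2.04 to 1.13. *Plaur* read 32.6 and 59.1 in WT and 33.9 and 26.3 under the knockout label, and the groups overlapped. Its log2 fold change was -0.54 (SE 0.39, 95% interval -1.31 to 0.23), with a limma adjusted p of 0.731. Between inhibitor, enzyme and receptor, only the inhibitor was called, and differences between their fold changes were not tested.

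**Figure D1:**
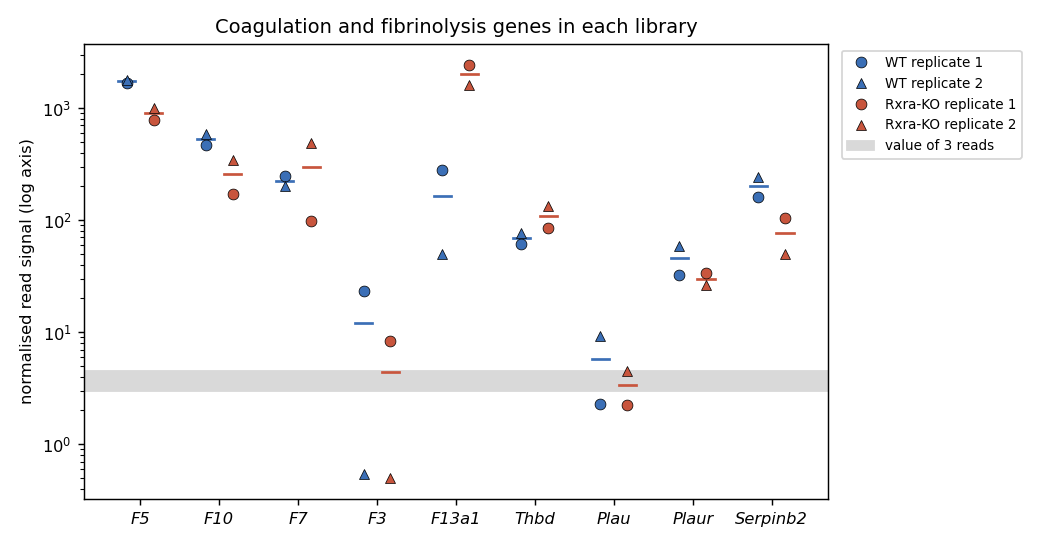
Normalised read signal (log axis) of each gene in the 4 libraries, with circles for replicate 1, triangles for replicate 2, horizontal bars for group means and a grey band for the value of 3 reads. *F13a1* rises from 282 and 49.4 in WT to 2443 and 1621 under the knockout label, *F7* splits the libraries labelled Rxra-KO, and *F3* and *Plau* lie around the band, where a library with 0 reads is drawn at the 0.5 read that the deposited values add.

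Of the 9 genes, 4 were called, against 2.29% of all genes. The 9 were chosen with earlier results of these data known, so this share and those that follow are descriptions only. The call upward was 1 of 9 (1.32% of all genes) and the calls downward were 3 of 9 (0.969% of all genes). The groups did not overlap in 5 of 9, against 38.1% of all genes. The median log2 fold change of the 9 genes was -0.54, against 0.02 for all genes, and 2 values lay above 0 and 7 below. All 9 passed the filter on low values, though 2 of them (*F3* and *Plau*) had a mean under 10 reads, as did 9514 of all 18364 genes. The shares over all genes were not matched for depth. With 2 libraries in each group, 0.333 is the smallest two-sided p an exact permutation test of 1 gene can give, so the calls depend on limma's borrowing of spread from other genes (227 prior against 2 residual degrees of freedom). Without the mean-variance trend in that spread none of the 9 was called, and 2 had an unadjusted p under 0.05.

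**Figure D2:**
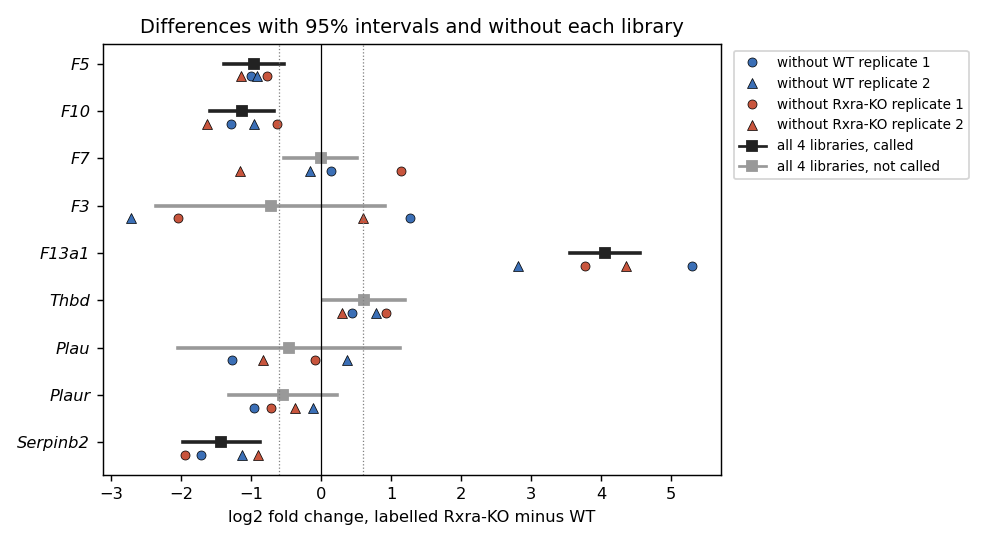
Log2 fold change (libraries labelled Rxra-KO minus WT) of each gene with its 95% interval from limma as squares and bars, the value without each library in turn as circles and triangles, and dotted lines at the threshold of 0.6 in either direction. *F5*, *F10*, *F13a1* and *Serpinb2* keep their sign without any 1 library, while *F7* runs from -1.16 to 1.15.

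Dividing each signal by the length of the longest coding transcript put the 9 genes on a common scale per kilobase. In WT, *F5* (232.6 ± 9.79 per kb) and *F10* (211.9 ± 34.1 per kb) led, and their libraries overlapped. *F7* (120.0 ± 17.5 per kb) and *Serpinb2* (100.5 ± 28.9 per kb) followed and overlapped each other, then came *F13a1* (42.0 ± 41.7 per kb), *Plaur* (30.4 ± 12.5 per kb) and *Thbd* (18.7 ± 3.09 per kb), of which *F13a1* overlapped both others. *F3* and *Plau* were last at 6.41 ± 8.66 and 2.45 ± 2.10 per kb.

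In the libraries labelled Rxra-KO, *F13a1* led at 514 ± 147 per kb. *F7* (159 ± 150 per kb), *F5* (121 ± 21.6 per kb) and *F10* (102 ± 48.8 per kb) came next and could not be ordered against their spread. *Serpinb2* (38.8 ± 19.3 per kb), *Thbd* (29.2 ± 9.03 per kb) and *Plaur* (22.5 and 17.5 per kb in the 2 libraries) followed, *Serpinb2* overlapping *Thbd*. In Rxra-KO replicate 1, *Thbd* was at 22.85 per kb (56 reads) and *Plaur* at 22.49 per kb (22 reads), so *Thbd* and *Plaur* could not be ordered. *F3* (2.34 ± 2.94 per kb) and *Plau* (1.44 ± 0.668 per kb) were again last. Of the summed signal per kb of the 9 genes, *F13a1* took 9.54% and 1.60% in WT and 65.2% and 39.9% under the knockout label. *F5* took 30.1% and 30.7% in WT and 11.1% and 13.2% under the knockout label, and *F10* went from 25.1% and 30.2% to 7.14% and 13.3%. These shares must sum to a whole, so a rise of *F13a1* lowers the share of the others.

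**Figure D3:**
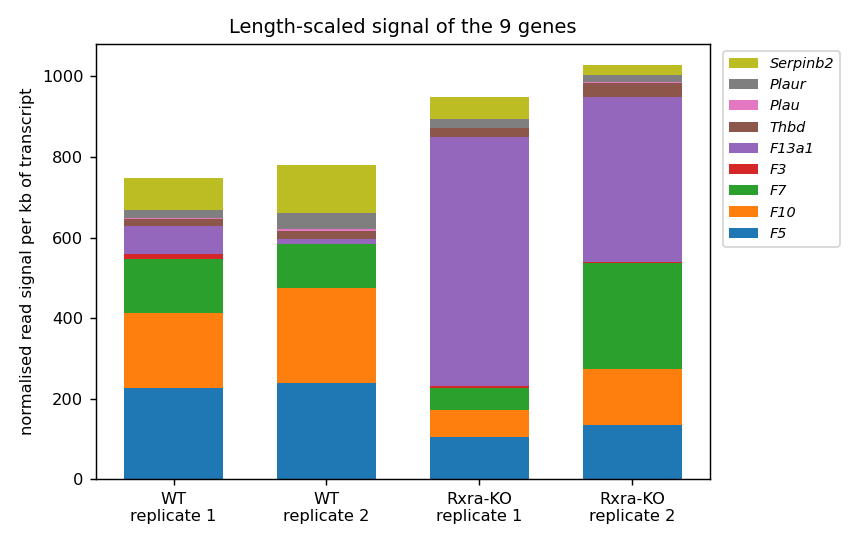
Normalised read signal per kilobase of transcript, stacked over the 9 genes, for each of the 4 libraries. *F5*, *F10* and *F7* form most of the WT bars, and *F13a1* is the largest segment in both libraries labelled Rxra-KO (65.2% and 39.9%).

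Other genes of the pathway gave few calls. A list of 47 further genes had 40 in the table, and 2 of these were called (2.29% of all genes were). The median log2 fold change of the 40 was 0.05, with 20 above and 20 below 0, and the groups did not overlap in 20, where 38.1% of all genes did not. Depth limited the list, since 25 of the 40 averaged below 10 reads, against 9514 of all 18364 genes. For 9 of the 40 no library exceeded 3 reads, against 2397 of all genes.

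Among coagulation factors and their handling, 14 of 16 were measured and none was called. *Lman1* and *Mcfd2* encode the pair that carries factors V and VIII out of the endoplasmic reticulum. *Lman1* read 282 and 312 in WT and 236 and 198 under the knockout label (log2 fold change -0.46, limma adjusted p = 0.521). *Mcfd2* read 31.0 and 25.5 in WT and 53.5 and 73.0 under the knockout label (log2 fold change 1.12, limma adjusted p = 0.0922), so neither passed although the groups did not overlap for either. In the anticoagulant list, 7 of 10 were measured and none was called. *Pros1*, which encodes protein S, a cofactor of activated protein C, differed little at 434 and 474 in WT and 397 and 477 under the knockout label. *Serpind1*, which encodes the thrombin inhibitor heparin cofactor II, had only 0 to 8 reads.

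Of the receptors, 7 of 8 were measured and 1 was called (2.29% of all genes were). *Itgam*, the αM chain of the integrin Mac-1 that binds fibrinogen and is also an LPM marker, read 3624 and 4534 in WT and 1406 and 2102 in the libraries labelled Rxra-KO. It fell by 1.24 on the log2 scale (SE 0.22, limma adjusted p = 8.6e-06). Its partner chain *Itgb2* stood at -0.44 on the same scale (limma adjusted p = 0.472). Of the fibrinolysis genes, 12 of 13 were measured and 1 was called (2.29% of all genes were). *Anxa2*, whose protein binds plasminogen and its activator at the cell surface, read 735 and 718 in WT and 1949 and 1615 under the knockout label, a log2 fold change of 1.29 (SE 0.21, limma adjusted p = 1.57e-06). *S100a10*, its binding partner, was at 0.48 (limma adjusted p = 0.765).

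*Serpinb2* belongs to the clade B serpins, intracellular protease inhibitors that lack a classical signal peptide. Of 16 listed, *Serpinb2* aside, 12 were measured and 2 were called (2.29% of all genes were). *Serpinb6a* rose, from 639.7 and 426 in WT to 1808 and 1861 (log2 fold change 1.81, SE 0.22, limma adjusted p = 3.0e-12). *Serpinb1a*, an inhibitor of neutrophil proteases, fell, from 237 and 288 in WT to 160 and 122 (log2 fold change -0.90, SE 0.25, limma adjusted p = 0.022). That call did not hold without WT replicate 1 (limma adjusted p = 0.0638), WT replicate 2 (limma adjusted p = 0.416) or Rxra-KO replicate 2 (limma adjusted p = 0.370), nor under TMM or library-total scaling, DESeq2 or limma without a trend. The median log2 fold change of the 12 was -0.12.

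**Figure D4:**
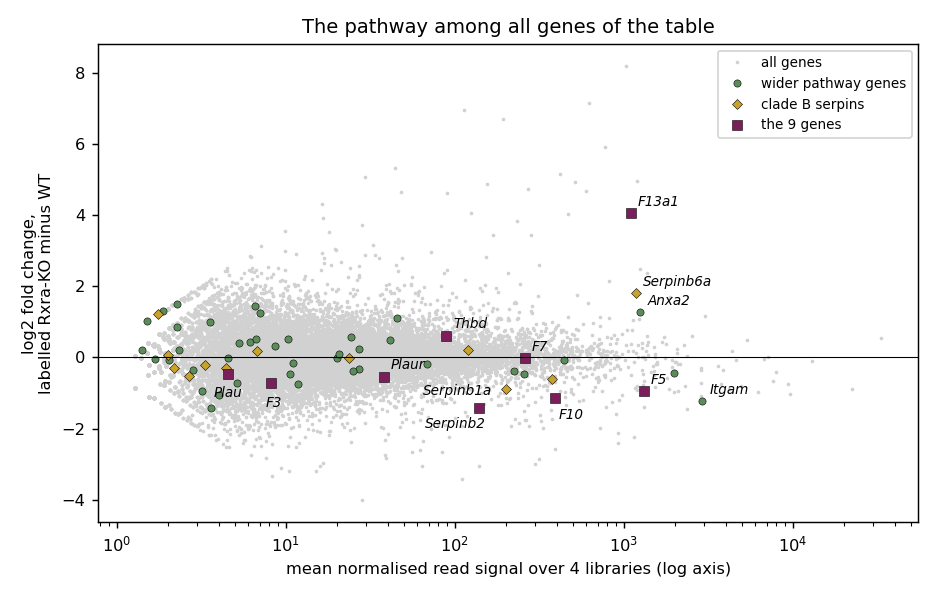
Log2 fold change (libraries labelled Rxra-KO minus WT) against mean normalised read signal (log axis) for 18364 genes, with the 9 genes as squares, the wider pathway as circles and clade B serpins as diamonds. *F13a1* at 4.06 stands alone above the wider pathway, in which *Itgam* and *Anxa2* are the called genes.

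Markers of cell state, chosen with earlier results of these data known, moved along with these results. All 9 measured LPM markers were lower under the knockout label and 6 were called (0.969% of all genes were called lower). Their summed signals were 36270 and 38940 in WT and 18050 and 20110 in the libraries labelled Rxra-KO, mostly from *Prg4*. *Icam2*, which encodes the CD102 used in the sort, read 1092 and 1301 in WT and 466 and 539 under the knockout label. A mixed list of 14 genes held genes linked to small peritoneal macrophages or monocyte-derived cells. *Folr2*, *Lyve1* and *Cd163* are also linked to resident macrophages of other tissues. Of the 14, 13 were higher and 10 were called (1.32% of all genes were called higher). Their sums were 557 and 171 in WT and 7530 and 7938 under the knockout label. The study had already reported the 10 called, *Ccr2*, *Mrc1*, *Retnla*, *Irf4*, *Cd209d*, *Fcrls*, *Clec4b1*, *Folr2*, *Lyve1* and *Cd163*, as higher in these data. These counts are therefore no independent support. Of that list *Cd209d* and *Clec4b1* were at 0 in WT, while *Cd226* and the monocyte genes *Ly6c2*, *Plac8* and *Chil3* had 0 to 5 reads in every library and were not called. WT replicate 1, the WT library with more *F13a1*, also had the larger sum. The part of these markers in the results for *F13a1*, *F5*, *F10* and *Serpinb2* was not tested, and in bulk RNA fewer cells of a type and less RNA per cell cannot be told apart.

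Platelets and megakaryocytes also carry much *F13a1* RNA. None of their 12 markers was called, 5 were higher and 7 lower, and 10 had under 20 reads in every library. The summed signal was 204 and 190 in WT and 214 and 187 in the libraries labelled Rxra-KO, mostly from *Pf4* and *Itgb3*. Reads of *Itga2b* were 0 and 1 in WT against 4 and 8 under the knockout label. In the same order *Treml1* had 0 and 0 against 2 and 4, *Gp1bb* 0 and 0 against 1 and 4 and *Tubb1* 0 and 2 against 2 and 6. *Ppbp* had 3, 0, 1 and 1 over the 4 libraries, and *Pf4* had 62 and 82 against 68 and 103. Among those lower, *Gp1ba* had 12 and 5 against 2 and 9. A platelet share in *F13a1* was not tested. Over the 4 libraries the summed signal of 6 neutrophil markers was between 111 and 133 and that of 7 mesothelial markers between 64.0 and 93.8. It was between 17.9 and 34.6 for 6 mast cell markers, 71.5 and 97.7 for 3 eosinophil markers and 10.6 and 22.6 for 4 B cell markers. None of these markers was called. *Cxcr2* and *Il5ra* made up most of the neutrophil and eosinophil sums, and *Lrrn4* was the largest part of the mesothelial sum. The neutrophil markers *S100a8*, *S100a9*, *Ly6g* and *Camp* and the eosinophil markers *Siglecf* and *Prg2* were not in the table. Nor were *Cpa3* (mast cell), *Krt19* (mesothelial) and *Pax5* (B cell), so the sums cover only part of each list. *Lyz2*, whose locus drives the Cre, fell by 1.03 on the log2 scale (limma adjusted p = 0.00163), which was lost when either WT library was left out.

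Genes whose profile over the 4 libraries came closest were sought for the 3 called members with the largest fold change, among 3466 genes with a mean signal of at least 50. Closeness was the Euclidean distance of centred log2(signal + 1) values, where 0 means the same profile. For *F13a1* they were *Mrc1* (distance 0.527), the mannose receptor, *Folr2* (0.797), a folate receptor, and *Lyve1* (0.904), a hyaluronan receptor. All 3 stood on the mixed list of 14 genes given above, which was chosen with earlier results of these data known. The study also reports *F13a1* as higher in these data, so this overlap is no independent support. For *Serpinb2* they were *Mcm5* (0.243), a subunit of the replicative helicase, *Mpeg1* (0.256), which encodes perforin-2, and *Tlr13* (0.415), a sensor of bacterial ribosomal RNA. For *F10* they were *Arrb2* (0.145), which encodes β-arrestin 2, *Ptgs1* (0.176), which encodes cyclooxygenase 1, and *Stk10* (0.235), a serine/threonine kinase. With 4 libraries such likeness is a description only, and it carries the same single-library differences as the members.

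**Figure D5:**
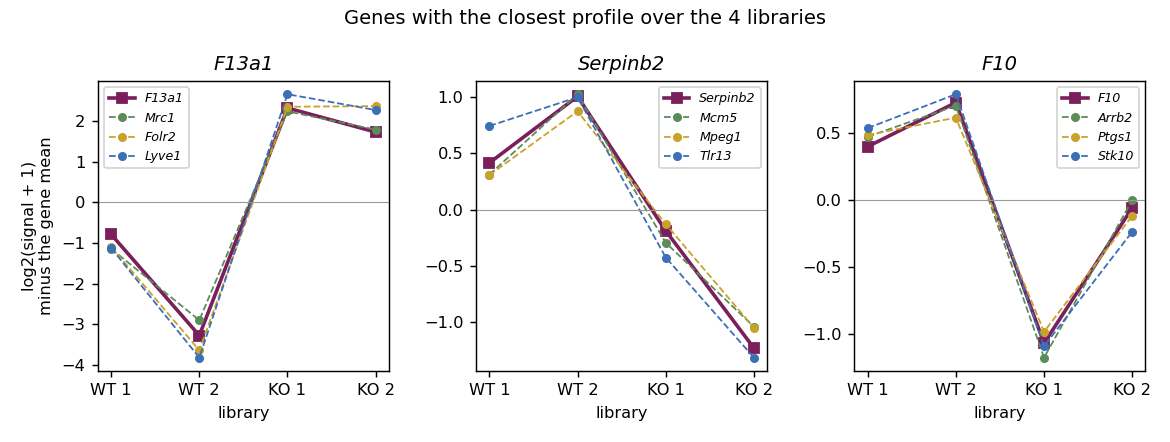
Centred log2(signal + 1) in each library (WT 1, WT 2, KO 1 and KO 2, the last 2 labelled Rxra-KO) for *F13a1*, *Serpinb2* and *F10* as squares, each with its 3 closest genes as circles. *F13a1* and its closest genes share the dip in WT replicate 2, and those of *F10* share the lowest value in Rxra-KO replicate 1.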

How the data were processed

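RNA-seq of sorted LPMs was compared between 2 WT and 2 libraries labelled Rxra-KO. Per the authors, cDNA was made with SMART-Seq v4, transcripts were quantified with Kallisto 0.43.0, summarised with tximport, scaled by TMM and tested with limma, and libraries that did not cluster with their group were excluded. GRCh38, a human build, is the only reference that the sources name, whereas the table carries mouse symbols, so the reference used was not settled. Titles number the replicates 1 and 2 and were followed here, while the deposited columns are named RXRWT2, RXRWT3, RXRKO2 and RXRKO3. The sources do not say whether a lower-numbered library of either group was among those excluded.

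The deposited unit is a normalised read signal, (reads + 0.5) over the scaled library size. Whole reads were recovered for 100% of values (tolerance 0.01), and edgeR 4.0.16 on them called 446 genes. Reads carry no molecular identifiers, so floors (3 reads) cover counting error only. The main test was limma 3.58.1 (R 4.3.3) with a mean-variance trend on log2(value + 1), which understates changes of low genes. P-values were two-sided and Benjamini-Hochberg adjusted over all 18364 genes. Calls needed an adjusted p below 0.05 with a log2 fold change of 0.6 or more in either direction. The filter (2 or more libraries with a value of 1 or more) removed no gene. The scripts were tested on simulated data.

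The members and lists were chosen with earlier results of these data known. Named were all members, *Rxra*, *Lyz2*, called pathway genes and clade B serpins, the 2 most abundant genes of each pathway list, the closest profiles and cell type markers. *Eno1*, which has near-identical copies, had 0 to 2 reads per library. Lengths came from GENCODE M21 basic (longest coding transcript) and promoters from RefSeq GRCm38.p6. Alternatives were TMM and library-total scaling, pseudocounts of 0.1 and 5, filters, voom, edgeR, DESeq2 1.42.0, no trend, a replicate block and leaving out each library.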

Additional observations from a re-analysis of the deposited data

How the results depend on the processing

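Against 421 calls over all genes, 4 among the 9 members and 2 in the wider pathway, TMM scaling of the recovered reads gave 203 and 2 (the latter among members, *F5* and *F13a1*), library-total scaling 245 over all genes and DESeq2 235. limma without a mean-variance trend called 0 genes (1579 at an unadjusted p under 0.05), 0 members (2 at an unadjusted p under 0.05) and 0 in the wider pathway (8 at an unadjusted p under 0.05). Without 1 library in turn, calls ranged from 236 to 377 over all genes and from 1 to 4 among the members, the lowest in both cases without WT replicate 2. Without Rxra-KO replicate 1, 244 genes were called. *F10* was not called under TMM scaling (limma adjusted p = 0.0849) nor *Serpinb2* (limma adjusted p = 0.056). *F7*, -0.01 on the log2 scale, changed sign under library-total scaling (0.013), a pseudocount of 5 (0.0016), voom (0.12), edgeR (0.44) and DESeq2 (0.38), with values from -1.16 to 1.15 when a library was left out. On leaving out a library *F3* ranged from -2.71 to 1.27 and *Plau* from -1.28 to 0.37. The cause was not tested. *Thbd* and *Plaur* changed call under none of 15 alternatives. With the replicate number as a replicate block, limma called 540 genes (all 421 among them), the same 4 members and the same 2 pathway genes. Deviations of same-numbered libraries correlated at r = 0.063 over 10049 genes, and with 2 pairs the numbers are not shown to pair the libraries. Depth limits *F3*, *Plau* and most of the wider pathway.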
